A study of Mus musculus with 6 samples.

Results

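The proteins of the mitochondrial ribosome were examined as a group of 76 genes, out of 18193 genes that the array platform's annotation names by a probe set of their own. A gene was a member when its single gene symbol began with Mrpl or Mrps followed by a number, where Mrpl stands for the large and Mrps for the small subunit. This gave 47 large and 29 small subunit genes, each represented by the probe set with the highest mean over all 6 arrays. The rule used names and mean signal and no difference between groups, but it was set with earlier results of these data known. The compared cells were mouse haematopoietic stem cells (HSCs), sorted from bone marrow as CD34-, Lin-, Sca1+, cKit+, CD150+ and CD48-. The first group, label-retaining cells (LRC), was GFP+ and the second, non-LRC, was GFP-, with 3 independent biological replicates each. All mice were of the SCL-tTA H2B-GFP line, in which the endogenous scl locus drives the tTA-S2 transactivator, which in turn switches on a histone H2B-GFP fusion, and all had received doxycycline for a chase of 170 days. The scl locus restricts GFP to HSCs and progenitors, so a GFP- cell may have diluted the label by dividing or may never have made it, and these cannot be told apart. Age, sex and whether a replicate was 1 mouse or a pool are not given in the sources used here.

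Mitochondrial ribosomes translate the few messages of mitochondrial DNA, all of which encode subunits of the respiratory chain and the ATP synthase. Their proteins are encoded in the nucleus, made in the cytosol and imported. Some descend from bacterial ribosomal proteins, and others are found only in mitochondrial ribosomes. Long-term HSCs of the bone marrow are known for low respiration and a reliance on glycolysis, and for raising mitochondrial activity when they leave quiescence. The question was whether the members, or 1 subunit relative to the other, differed between LRC and non-LRC.

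The values were log2 signals that RMA, a method for summarizing Affymetrix probe sets, had already made comparable between arrays. Array medians were 4.37 on every LRC array and 4.33 to 4.39 in non-LRC. LRC replicate 1 stood apart: its correlations with the other arrays, across probe sets, were 0.901 to 0.919, where the highest between any pair was 0.970. The mean of the 18 hybridization control probe sets, transcripts added to each sample before hybridization, was 11.24, 10.60 and 11.02 in LRC replicates 1 to 3 and 10.70, 10.60 and 10.58 in non-LRC replicates 1 to 3. The log2 signal of the 3' Gapdh probe set over the 5' one, a sign of RNA integrity and amplification length, was 4.16, 3.16 and 3.24 in LRC and 3.42, 2.72 and 3.40 in non-LRC. The same measure for Actb was -0.036, -0.13 and -0.61 in LRC and -0.20, -0.23 and -0.16 in non-LRC, where LRC replicate 3 lay apart. Kit, the receptor behind the cKit gate, had values of 8.999 to 9.127 in LRC and 9.012 to 9.109 in non-LRC, and Cd48 lay below the 40th percentile of probe-set means. Slamf1, which encodes CD150, was uneven, with 6.24, 7.76 and 8.83 in LRC and 7.20, 8.26 and 8.48 in non-LRC. The HSC markers Procr, Mecom, Hlf and Tal1 had higher means in LRC, by 0.31, 0.33, 0.38 and 0.41, and the progenitor marker Flt3 differed by -0.27. Cd34 was not uniformly absent, with 2.52, 6.97 and 5.10 in LRC and 7.43, 6.60 and 5.62 in non-LRC. The mean of 4 erythroid markers spanned 3.71 to 4.46 in LRC and 3.49 to 5.69 in non-LRC. That of 7 myeloid markers spanned 5.49 to 6.75 in LRC and 6.25 to 7.35 in non-LRC. Both upper non-LRC values were those of non-LRC replicate 1. There Car1 was 7.34, against 3.52 and 3.08 in non-LRC replicates 2 and 3, and S100a8 was 8.27, against 4.71 and 5.74. The mean of 4 B cell markers spanned 4.73 to 5.57 in LRC and 4.73 to 5.01 in non-LRC. Among them Vpreb1 was 9.58 on LRC replicate 1 and 4.96 to 6.84 on the other arrays.

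No mitochondrial ribosomal protein gene passed the test between LRC and non-LRC. In limma with Benjamini-Hochberg adjustment over 45037 probe sets, 0 of 76 members had an adjusted p under 0.05, and the smallest was 0.998. Over all probe sets 0% passed, and the smallest adjusted p was 0.658. Before adjustment, limma gave p under 0.05 for 4 members that were lower in LRC, Mrps5, Mrpl16, Mrps35 and Mrpl21, where 1.97% of all probe sets were lower by the same rule. It gave 1 member that was higher, Mrps16, where 1.74% of all probe sets were. The groups did not overlap, with LRC lower, for Mrps5, Mrpl16 and Mrps35, a state found in 3.4% of all probe sets. They did not overlap with LRC higher for Mrps16 and Mrpl55, a state found in 4.88% of all probe sets. All probe sets include dim ones and several per gene, so the 12455 genes above the 40th percentile are the closer background. Among these, limma gave p under 0.05 for 354 genes lower and 278 higher in LRC, against 4 and 1 of 76 members. The groups did not overlap for 557 genes lower and 550 higher in LRC, against 3 and 2 of 76 members. For a single gene, an exact permutation test of 3 against 3 arrays cannot give a two-sided p below 0.1.

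The members' differences were small for most genes and imprecise for all. The mean was lower in LRC for 46 members and higher for 30. The median difference, LRC minus non-LRC, was -0.096 on the log2 scale, with quartiles of -0.40 and 0.13. Over all genes the median was 0.034 and 45.1% were lower, and over the 12455 genes above the 40th percentile the median was 0.0043 and 49.6% were lower. All 76 members lay above that percentile, a log2 value of 3.80, so none was represented by a dimmer probe set. Only Mrps5 and Mrps21 differed by 1 or more in either direction. The standard error of a difference was 0.19 to 0.94, and the median 95% interval reached 0.90 to either side of the estimate. For 23 members the whole interval lay within a change of 1 in either direction, so for the other 53 a change of that size was not excluded. In bulk RNA a smaller share of cells with a transcript and less of it per cell cannot be told apart, and normalization removes any change of total RNA per cell.

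**Figure D1:**
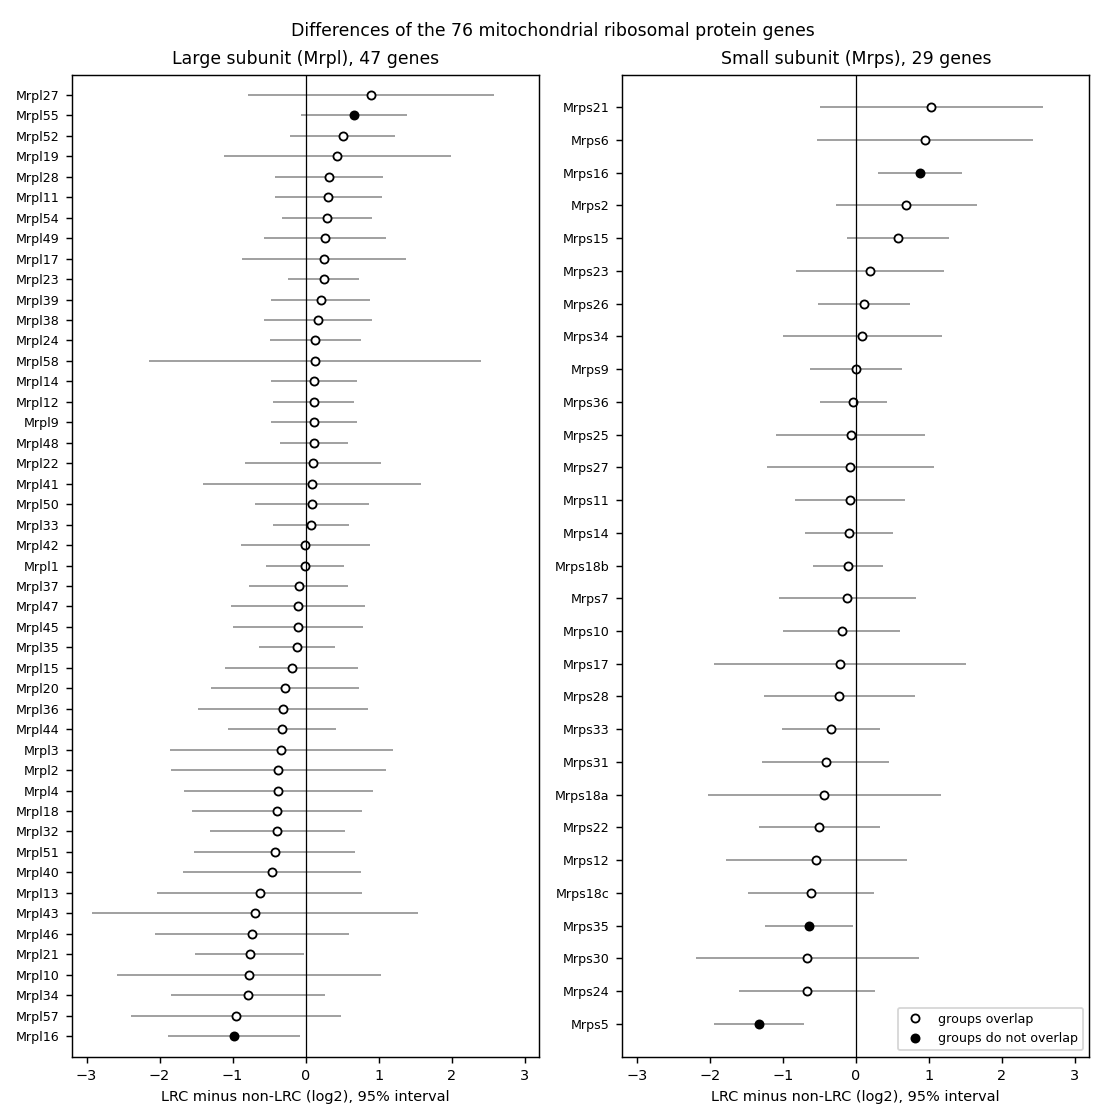
Difference of each member, LRC minus non-LRC, on the log2 scale (horizontal axis), with its 95% interval as a line; large subunit genes are on the left, small subunit genes on the right. Filled circles mark the 5 genes whose groups do not overlap, and the intervals of most other genes cross 0.

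Among small subunit genes, the change with the smallest unadjusted p was that of Mrps5. Its bacterial counterpart, S5, lines the path by which messenger RNA enters the ribosome and bears on decoding accuracy. Mrps5 had values of 6.40, 6.80 and 6.36 in LRC and 8.23, 7.76 and 7.55 in non-LRC. All LRC arrays were lower, with a difference of -1.32 (SE 0.25, adjusted p = 0.998 in limma, n = 3 each). Leaving out any 1 array kept the difference between -1.47 and -1.13. Its other probe sets did not share that size, as given below. Mrps35, a subunit found only in mitochondria, had 7.36, 7.57 and 7.46 in LRC and 8.44, 7.66 and 8.20 in non-LRC. The LRC arrays were tightly grouped, and non-LRC replicate 2 lay just above them, with a difference of -0.64 (SE 0.25).

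Mrps16, a counterpart of a bacterial protein needed for assembly of the small subunit, moved the other way. Its values were 7.21, 6.57 and 6.74 in LRC and 6.16, 5.94 and 5.77 in non-LRC. The lowest LRC array lay above the highest non-LRC array, and the difference was 0.88 (SE 0.24, adjusted p = 0.998 in limma). Without any 1 array it lay between 0.70 and 1.02. Mrps16 has a single probe set, so no second measurement of it was at hand. Both genes thus had LRC arrays that all lay on one side, in opposite directions and within the same subunit.

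For 4 other small subunit genes of higher mean in LRC, the groups overlapped. Mrps15, a counterpart of bacterial S15, had 7.65, 7.22 and 7.03 in LRC and 6.33, 6.68 and 7.17 in non-LRC, so that the means differed by 0.58 (SE 0.29). Mrps2, a counterpart of S2, had 7.29, 7.56 and 6.98 in LRC and 6.15, 6.16 and 7.45 in non-LRC, with means that differed by 0.69 (SE 0.40). In both, non-LRC replicate 3 reached into the LRC values. Mrps21, a counterpart of S21, had 9.83, 7.45 and 7.94 in LRC and 6.91, 7.43 and 7.78 in non-LRC. Its difference of 1.04 (SE 0.63) rested on LRC replicate 1, and was 0.32 without that array. Mrps6, a counterpart of S6, had 8.52, 7.92 and 8.07 in LRC and 5.80, 7.79 and 8.08 in non-LRC, differing by 0.95 (SE 0.61). Here it was non-LRC replicate 1 that lay apart, and the difference was 0.23 without it.

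Mrps24 and Mrps12 had lower means in LRC, also with overlap. Mrps24, the mitochondrial counterpart of bacterial S3 at the messenger entry site, had 8.53, 8.54 and 8.29 in LRC and 9.43, 8.27 and 9.66 in non-LRC. Non-LRC replicate 2 fell below the LRC arrays, and the difference was -0.67 (SE 0.38). Mrps12, whose bacterial counterpart lies at the decoding centre where streptomycin acts, had 5.95, 7.33 and 7.06 in LRC and 6.87, 8.20 and 6.90 in non-LRC. The difference was -0.54 (SE 0.51), and -0.12 without LRC replicate 1.

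Among large subunit genes, Mrpl16 and Mrpl21 had the smallest unadjusted p. The bacterial counterpart of Mrpl16 sits near the peptidyl transferase centre and joins late in assembly. Mrpl16 had 7.57, 8.62 and 8.12 in LRC and 9.67, 8.88 and 8.70 in non-LRC. The groups did not overlap, although LRC replicate 2 and non-LRC replicate 3 nearly met, and the difference was -0.98 (SE 0.37). Mrpl21, a counterpart of L21, had 6.49, 7.27 and 6.58 in LRC and 7.93, 7.16 and 7.57 in non-LRC. LRC replicate 2 lay above non-LRC replicate 2, and the difference was -0.77 (SE 0.31). Leaving out any 1 array kept Mrpl16 between -1.23 and -0.68 and Mrpl21 between -1.01 and -0.58.

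Mrpl34 and Mrpl57 were lower in LRC by their means, each with LRC replicate 2 among the non-LRC values. Mrpl34, a counterpart of the small bacterial protein L34, had 5.93, 7.19 and 5.66 in LRC and 6.71, 7.40 and 7.04 in non-LRC, so that the means differed by -0.79 (SE 0.44). Mrpl57, found only in mitochondria, had 7.49, 7.89 and 5.71 in LRC and 8.45, 7.56 and 7.94 in non-LRC, with means that differed by -0.95 (SE 0.59). LRC replicate 3 set most of the Mrpl57 difference, which was -0.29 without it.

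On the higher side, Mrpl55 was the large subunit gene whose groups did not overlap. Mrpl55, a counterpart of bacterial L31, had 6.42, 5.45 and 5.47 in LRC and 5.11, 5.09 and 5.15 in non-LRC. The non-LRC arrays were nearly equal and the difference was 0.67 (SE 0.30), or 0.34 without LRC replicate 1. Mrpl52, found only in mitochondria, had 11.72, 11.16 and 10.65 in LRC and 10.75, 10.71 and 10.56 in non-LRC. LRC replicate 3 lay among the non-LRC values, and the difference was 0.51 (SE 0.30), or 0.24 without LRC replicate 1. Mrpl27, whose bacterial counterpart reaches toward the peptidyl transferase centre, had 5.95, 6.05 and 6.58 in LRC and 4.84, 4.16 and 6.91 in non-LRC. Its difference of 0.89 (SE 0.70) came with non-LRC arrays that spread more widely than the groups differed.

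Mrpl12 and Mrpl11, of the stalk, the flexible arm of the large subunit that engages translation factors, showed no clear difference by the probe sets that represent them. Mrpl12, which forms the arm itself, had 5.92, 5.94 and 5.86 in LRC and 5.41, 5.87 and 6.10 in non-LRC. The LRC arrays lay within the non-LRC range, and the difference was 0.11 (95% interval -0.44 to 0.67). Mrpl11, which lies at the base of the stalk, had 9.69, 9.80 and 9.20 in LRC and 9.41, 8.74 and 9.60 in non-LRC. The difference was 0.31 (95% interval -0.41 to 1.04). For both genes a change of 1 downward lay outside the interval, and for Mrpl12 a change of 1 upward did too. The Mrpl11 interval is that of its brightest probe set, and its others gave 0.28, -0.36 and 1.59. Mrpl10, a counterpart of bacterial L10, had 3.34, 6.08 and 6.01 in LRC and 5.56, 6.13 and 6.06 in non-LRC. Its difference was -0.78 (95% interval -2.59 to 1.04), or 0.13 without LRC replicate 1, so it was not bounded in this way.

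**Figure D2:**
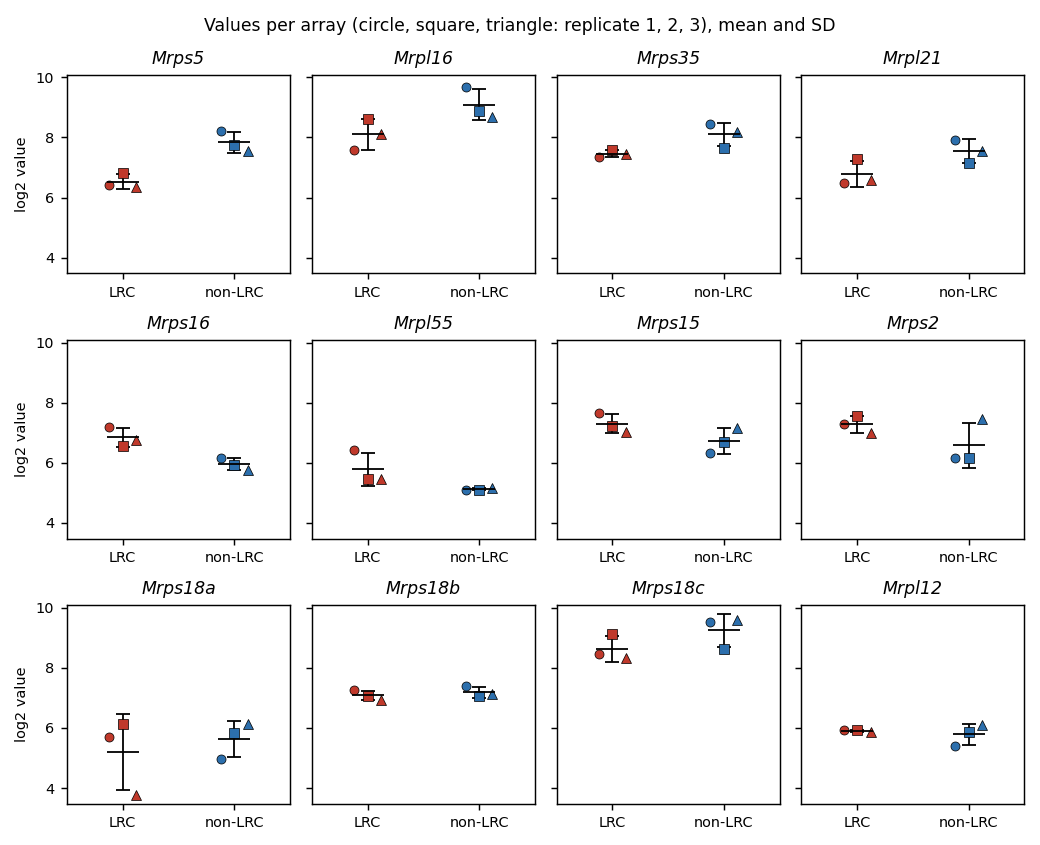
Deposited log2 value (vertical axis) of 12 members on each array, LRC left of non-LRC, with circle, square and triangle for replicates 1, 2 and 3 and with bars for the group mean and SD. The groups do not overlap for Mrps5, Mrpl16, Mrps35, Mrps16 and Mrpl55, and they overlap in the other 7 panels.

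The members with the smallest standard errors put the tightest bounds on a change, each for the probe set that represents it. Mrps36 had 6.23, 6.18 and 6.48 in LRC and 6.17, 6.44 and 6.38 in non-LRC, with a difference of -0.032 (95% interval -0.49 to 0.42). Despite its name, Mrps36 is now known as a subunit of the 2-oxoglutarate dehydrogenase complex of the citric acid cycle, and not of the ribosome. Mrpl48, found only in mitochondria, differed by 0.11 (95% interval -0.36 to 0.58), and Mrpl23, near the exit of the peptide tunnel, by 0.25 (95% interval -0.24 to 0.73). The Mrpl48 interval does not bound the gene, as its other probe sets gave 2.37 and -0.44. At the other end, Mrpl58, a peptidyl-tRNA hydrolase built into the large subunit, had 4.32, 6.87 and 7.18 in LRC and 4.63, 6.22 and 7.12 in non-LRC. Replicate 1 was low in both groups and the difference was 0.13 (95% interval -2.14 to 2.40). Mrpl43 had 3.63, 6.62 and 6.11 in LRC and 6.77, 6.85 and 4.81 in non-LRC, and Mrps17, a counterpart of S17, had 5.33, 7.13 and 8.21 in LRC and 6.66, 7.47 and 7.20 in non-LRC. LRC replicate 1 was the lowest of the 6 arrays for all 3 of these genes.

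The mouse genome holds 3 genes named for bacterial S18, and they were examined together because their products lie in different places. The Mrps18c product takes the place of S18 in the small subunit, that of Mrps18b lies elsewhere in the small subunit, and that of Mrps18a lies in the large subunit. Mrps18c had 8.45, 9.11 and 8.33 in LRC and 9.52, 8.62 and 9.60 in non-LRC, differing by -0.62 (SE 0.36). Mrps18b had 7.25, 7.06 and 6.93 in LRC and 7.39, 7.05 and 7.12 in non-LRC, so that the means differed by -0.11 (SE 0.20). Mrps18a had 5.70, 6.14 and 3.78 in LRC and 4.96, 5.82 and 6.12 in non-LRC, differing by -0.43 (SE 0.66), or by 0.28 without LRC replicate 3. The groups overlapped for all 3 genes, and Mrps18b was the most even of them across arrays. Mrps30, another gene with a small subunit name whose product is part of the large subunit, had 5.54, 7.36 and 7.60 in LRC and 7.02, 7.16 and 8.31 in non-LRC. Its difference of -0.66 (SE 0.63) was -0.016 without LRC replicate 1.

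Promoters of many nuclear genes for mitochondrial proteins are known to be bound by the transcription factors GABPA, NRF1 and YY1. The promoters of Mrps5 and Mrps16 are shown because these genes had the smallest unadjusted p in each direction, and those of the S18 genes because they hold all the motifs searched. Each runs from 250 bases before to 50 bases after the start of the gene in the RefSeq annotation of GRCm38.p6, on the gene's own strand, 5' to 3'. Capitals mark matches, on either strand, to CCGGAAG (the ETS core bound by GABPA), GCGCATGC (NRF1), AAGATGGCG (YY1) and CACGTG (the E-box bound by MYC and MAX). Mrps5 is at chr2:127587176-127587475 (+ strand), Mrps16 at chr14:20393441-20393740 (- strand), Mrps18a at chr17:46110754-46111053 (+ strand), Mrps18b at chr17:35916391-35916690 (- strand) and Mrps18c at chr5:100798509-100798808 (+ strand).
Mrps5: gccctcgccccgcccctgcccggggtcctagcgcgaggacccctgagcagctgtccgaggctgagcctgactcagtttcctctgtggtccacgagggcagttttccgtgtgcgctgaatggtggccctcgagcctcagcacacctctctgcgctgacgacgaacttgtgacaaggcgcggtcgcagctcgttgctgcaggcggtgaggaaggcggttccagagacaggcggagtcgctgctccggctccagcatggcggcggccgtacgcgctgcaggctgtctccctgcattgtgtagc
Mrps16: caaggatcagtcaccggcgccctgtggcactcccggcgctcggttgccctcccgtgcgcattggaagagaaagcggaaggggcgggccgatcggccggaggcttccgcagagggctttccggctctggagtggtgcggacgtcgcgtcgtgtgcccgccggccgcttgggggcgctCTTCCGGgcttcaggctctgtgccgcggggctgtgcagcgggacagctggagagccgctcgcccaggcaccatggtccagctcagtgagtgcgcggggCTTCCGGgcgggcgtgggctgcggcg
Mrps18a: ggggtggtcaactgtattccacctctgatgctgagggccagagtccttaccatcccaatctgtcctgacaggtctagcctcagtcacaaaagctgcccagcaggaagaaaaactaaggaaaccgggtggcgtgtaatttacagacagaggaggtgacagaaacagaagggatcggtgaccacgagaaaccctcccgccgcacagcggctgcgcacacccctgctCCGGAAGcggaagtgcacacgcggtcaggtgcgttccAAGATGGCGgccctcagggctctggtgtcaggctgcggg
Mrps18b: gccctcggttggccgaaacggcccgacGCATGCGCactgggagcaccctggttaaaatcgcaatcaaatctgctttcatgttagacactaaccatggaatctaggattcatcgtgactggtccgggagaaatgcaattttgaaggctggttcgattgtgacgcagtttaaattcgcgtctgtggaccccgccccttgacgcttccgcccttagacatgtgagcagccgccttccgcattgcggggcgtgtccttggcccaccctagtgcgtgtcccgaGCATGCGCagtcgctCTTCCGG
Mrps18c: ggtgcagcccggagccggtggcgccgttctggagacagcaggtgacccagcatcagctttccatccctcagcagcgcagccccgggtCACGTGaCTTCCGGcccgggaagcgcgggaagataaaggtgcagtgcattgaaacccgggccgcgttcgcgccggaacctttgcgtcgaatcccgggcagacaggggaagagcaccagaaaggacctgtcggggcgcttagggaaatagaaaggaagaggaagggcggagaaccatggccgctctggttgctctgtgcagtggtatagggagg

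Mrps16 held the ETS letters at 2 places, Mrps18a the ETS and YY1 letters, Mrps18b the ETS letters with 2 NRF1 matches, and Mrps18c the ETS letters beside an E-box. The Mrps5 window held none of these letters. Of the 76 members, 67 had an entry in the promoter table. The ETS letters occurred in 25 of these 67 windows (37.3%), against 9.93% of the 300-base windows of 27025 genes and 15.0% of those of the 14452 genes also measured on the array. The NRF1 letters occurred in 8 (11.9%), against 3.05% and 4.68% in the same backgrounds. The YY1 letters also occurred in 8 (11.9%), against 1.64% and 2.53%. The E-box was no more frequent in members, with 5 (7.46%) against 8.09% and 10.2%. Cytosolic ribosomal protein genes held the ETS letters in 48.8% of 43 windows and respiratory chain genes in 28.1% of 57.

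Members with and without the ETS letters had close median differences between LRC and non-LRC. The median was -0.11 for the 25 members with the ETS letters and -0.087 for the 42 without. For NRF1 it was 0.084 with and -0.097 without the letters, but 0.046 with and 0.069 without when LRC replicate 1 was left out. All 8 members with the YY1 letters, among them Mrps24, Mrps11 and Mrpl35, had a lower mean in LRC, with a median of -0.11, while 33 of the 59 without were lower, with a median of -0.069. All 5 with the E-box were lower too, with a median of -0.31, while 36 of the 62 without were lower, with a median of -0.072. Without LRC replicate 1, 4 of the 8 with the YY1 letters and 2 of the 5 with the E-box were lower. No test of these splits was made. Of the 8 members with the NRF1 letters, 7 were large subunit genes, as were 41 of the 67 members with a window. No matches of different motifs overlapped, and these are letters in a window, with no measurement of binding in this series.

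The lean of the members toward lower values in LRC rested on 1 array. For each gene the value on an array was set against the gene's own mean over the 6 arrays. The median of these deviations over the 76 members was -0.30, 0.21 and 0.020 in LRC replicates 1, 2 and 3, and -0.14, 0.047 and 0.11 in non-LRC replicates 1, 2 and 3. LRC thus held both the lowest and the highest array, with non-LRC between them, and the group means were -0.024 ± 0.26 for LRC and 0.0050 ± 0.13 for non-LRC (SD over 3 arrays each). Genes above the 40th percentile stayed within -0.024 and 0.013 on every array.

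LRC replicate 1 was the lowest of the 6 arrays for 29 members (38.2%), against 24.1% of genes above the 40th percentile. LRC replicate 2 was the lowest for 2 members (2.63%), against 15.8% of those genes. The 3 LRC arrays spanned more than the difference between groups for 66 members, and in 74 members the arrays of 1 group or the other did. The same counts were not made over all genes, so they are not read as a trait of the members. The median SD was 0.48 in LRC and 0.42 in non-LRC, against 0.35 in LRC and 0.27 in non-LRC over all genes. All genes include those below the 40th percentile, where no member lies. The median standard error was 0.37 for members, 0.33 for genes above that percentile and 0.28 for all genes. Without LRC replicate 1, 29 of 76 members were lower in LRC in place of 46, the median difference was 0.046, and 51.6% of all genes were lower. This array also had the brightest hybridization controls and the largest Gapdh 3' to 5' difference, while that of Actb was below 0 on every array and farthest from it on LRC replicate 3. With the hybridization control mean as a covariate 25 of 76 members were lower, with a median of 0.10, while 57.0% of all genes were lower. The highest control means were those of LRC replicates 1 and 3 (11.24 and 11.02). This covariate is thus partly confounded with group, and its fit leans on LRC replicate 2. For 30 of 76 members the sign of the difference was kept whichever array was left out, a count that was not made over all genes. Of the 30 members named by the rule for named genes, 5 kept their difference within 1.5 times whichever array was left out, namely Mrps5, Mrps16, Mrpl16, Mrps35 and Mrpl21. These are the 5 with an unadjusted p under 0.05 in limma on the same arrays, so their stability is no separate support. For those of them lower in LRC, non-LRC replicate 1 was the highest of the 6 arrays, and leaving it out brought each difference nearest to 0. With the covariate Mrpl16 was -0.58, Mrpl21 -0.42 and Mrps16 0.56, outside 1.5 times, while Mrps5 (-1.17) and Mrps35 (-0.58) stayed within it.

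**Figure D3:**
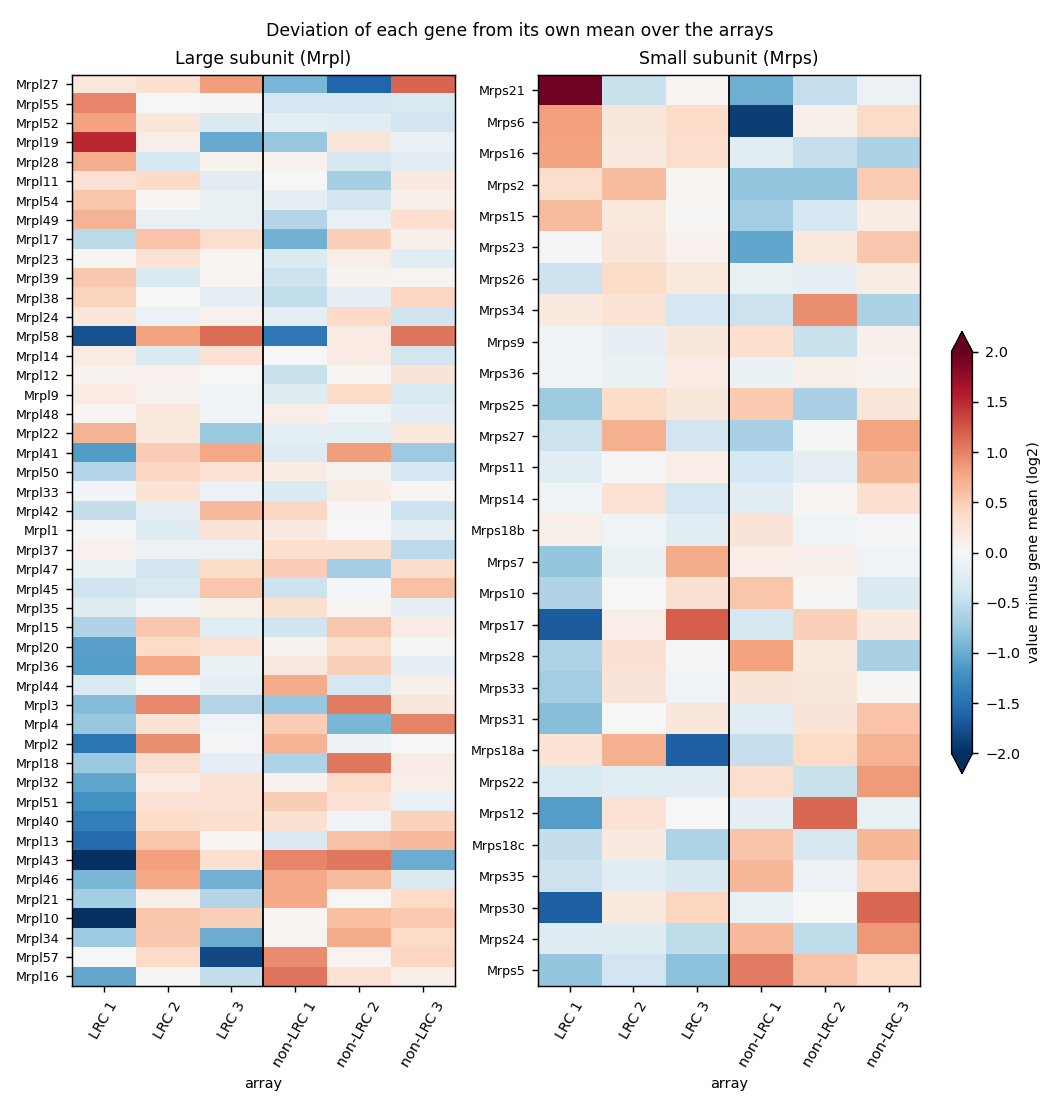
Deviation of each member from its own mean over the 6 arrays (colour, log2 scale, with values past 2 drawn at the end of the scale), with genes as lines ordered by their difference and arrays as columns, LRC left of non-LRC. The LRC replicate 1 column is the bluest, the lowest array for 29 members, while LRC replicate 2 is the lowest for 2.

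**Figure D4:**
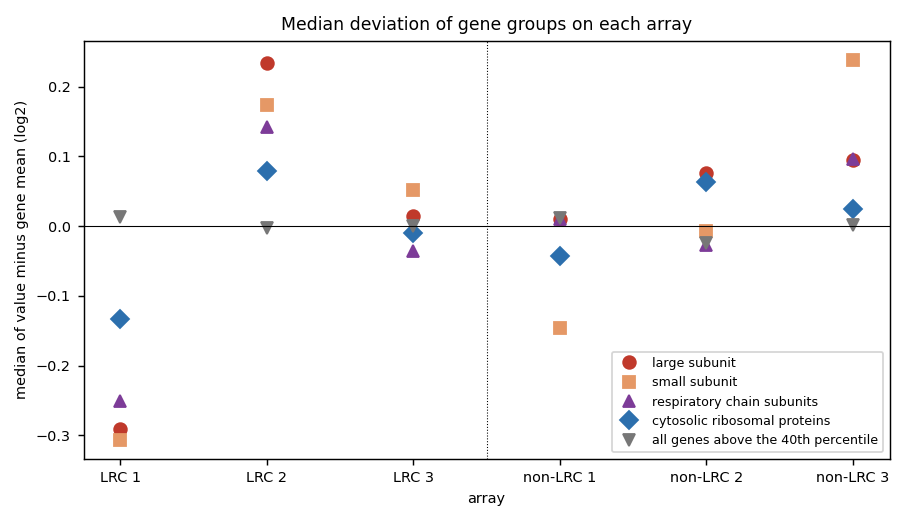
Median deviation from the gene mean (vertical axis, log2) on each array (horizontal axis, LRC left of non-LRC) for both subunits, respiratory chain subunits, cytosolic ribosomal proteins and all genes above the 40th percentile. The gene groups are lowest on LRC replicate 1, with medians of -0.29 and -0.31 for the large and small subunit, and all genes above the 40th percentile stay near 0.

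Large and small subunit genes did not part beyond the spread between arrays. By name, 25 of 47 large subunit genes were lower in LRC with a median difference of -0.0070, and 21 of 29 small subunit genes were lower with a median of -0.11. The median of the large minus that of the small subunit was 0.099. Per array, the median deviation of large subunit genes minus that of small subunit genes was 0.016, 0.061 and -0.037 in LRC and 0.16, 0.083 and -0.14 in non-LRC. The LRC values lay within the range of the non-LRC values. When Mrps30 and Mrps18a were counted with the large subunit and Mrps36 was left out, the medians were -0.097 over 49 large and -0.10 over 26 small subunit genes, and 0.0042 remained between them. Both subunits followed the same course over the LRC arrays, with -0.29, 0.23 and 0.015 for the large and -0.31, 0.17 and 0.052 for the small subunit.

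Members of either origin had close medians. The 45 genes with a bacterial counterpart had a median difference of -0.10, with 27 lower in LRC. The 28 genes found only in mitochondria had -0.072, with 16 lower. Mrps18a, Mrps18b and Mrps36 were not part of this split. The members lie on 17 chromosomes.

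Different probe sets for 1 gene often disagreed, which bears on every single-gene value above. The 76 members had 156 probe sets, with 34 members measured by 1 and 42 by several. Of the 80 probe sets beyond the brightest, 51 had a difference of the same sign as the brightest, and 22 lay below the 40th percentile. In 24 of the 42 genes both signs occurred. In 18 genes all other probe sets had the sign of the brightest, and in 10 none did.

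Mrps5 was among the discordant genes. Beside the -1.32 of its brightest probe set, its probe set of middle signal gave -0.59, with 4.16, 4.07 and 4.05 in LRC and 4.98, 4.20 and 4.86 in non-LRC, so that its groups did not overlap either. The second brightest gave -0.062, the second dimmest 0.26, and the dimmest gave 0.95 from below the 40th percentile. The dimmest had 3.40, 3.54 and 5.16 in LRC and 3.18, 2.82 and 3.26 in non-LRC, so its groups did not overlap either, with LRC higher. The mean of all 5 was -0.15. Mrpl48 had the widest range. Its dimmest probe set had 6.98, 6.69 and 6.77 in LRC and 3.88, 5.53 and 3.93 in non-LRC, with a difference of 2.37 (SE 0.47), while its brightest gave 0.11 and the remaining one -0.44. The 3 LRC values were close together and far above the non-LRC values, a pattern seen in neither other probe set of the gene.

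Mrpl11 showed a similar split. Its dimmest probe set had 6.27, 6.39 and 6.35 in LRC and 4.18, 4.04 and 6.02 in non-LRC, with means that differed by 1.59 (SE 0.53), while its second dimmest gave -0.36 and no overlap, LRC being lower. Its other probe sets gave 0.31 and 0.28. Mrpl15, a counterpart of L15, had 8 probe sets, with differences of -1.69 to 0.56, of which 7 were negative. Mrpl1, a counterpart of the mobile arm protein L1, gave -0.0070, 0.43 and -1.29. The position of these probe sets within their transcripts was not used here.

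**Figure D5:**
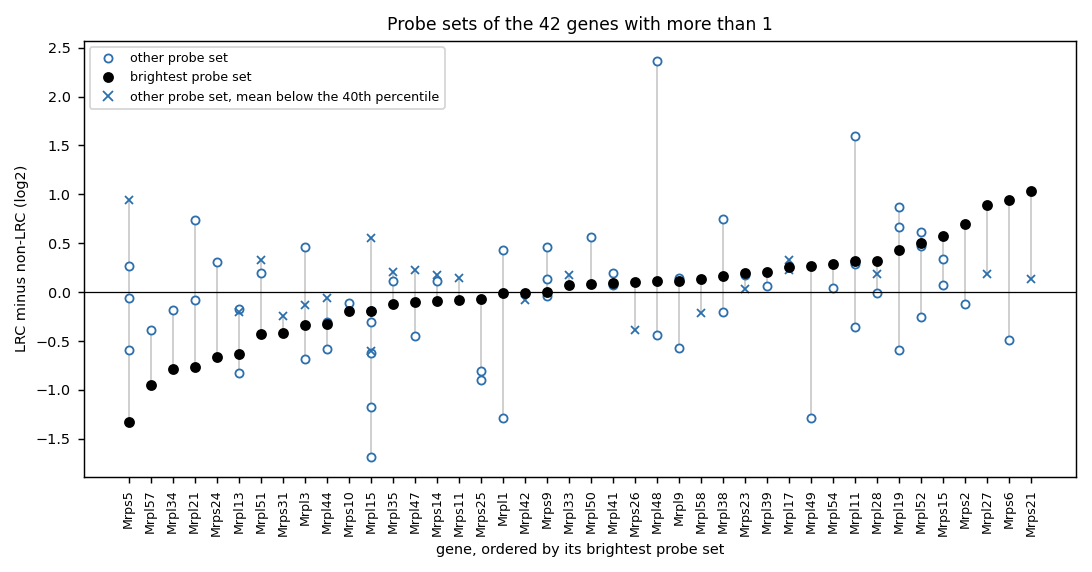
Difference, LRC minus non-LRC (vertical axis, log2), of every probe set of the 42 members that have more than 1, with genes ordered by their brightest probe set (filled circle), the others as open circles and those below the 40th percentile as crosses. Both signs occur in 24 genes, and the Mrpl48 probe set at 2.37 lies above all others.

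Among other genes of mitochondrial gene expression, 0 passed the limma test in either direction, and 1, Dhx30, had an unadjusted p under 0.05. Of the ribosomal subunits that lack an Mrp name, 4 of 7 listed had a probe set of their own beyond the members. Ptcd3, a pentatricopeptide protein of the small subunit, averaged 9.44 ± 0.25 in LRC and 9.10 ± 0.086 in non-LRC (SD over 3 arrays each), with no overlap and a difference of 0.35 (SE 0.20). Dap3, a small subunit GTP-binding protein, differed by -0.14 (SE 0.27), Chchd1 by 0.058 (SE 0.23) and Gadd45gip1, of the large subunit, by -0.50 (SE 0.63). With non-LRC replicate 1 left out, Gadd45gip1 differed by 0.25. Among 11 measured of 13 translation factors, 6 were lower in LRC and the median was -0.032, but 3 were lower without LRC replicate 1 and 2 without LRC replicate 3, with medians of 0.067 and 0.20. Tufm, the elongation factor that brings aminoacyl-tRNA, had 7.68, 8.15 and 8.07 in LRC and 7.79, 7.31 and 7.43 in non-LRC, differing by 0.46 (SE 0.23), and the initiation factor Mtif3 differed by 0.45 (SE 0.32).

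Genes that act before translation had lower means in LRC more often than not, by a margin that depended on single arrays. Of 24 genes for assembly of the ribosome and maturation of its RNA, 17 were lower in LRC, with a median of -0.14. Without LRC replicate 1, 13 were lower with a median of -0.032, and without non-LRC replicate 1, 14 with a median of -0.046. The median stayed below 0 whichever array was left out. Dhx30, an RNA helicase of mitochondrial RNA granules, had 6.95, 8.06 and 7.98 in LRC and 10.11, 8.32 and 8.68 in non-LRC, without overlap and with a difference of -1.38 (SE 0.54). Rcc1l, an assembly factor, differed by -1.19 (SE 0.61). Of 18 genes for mitochondrial transcription and messenger handling, 14 were lower, with a median of -0.17, but 8 were lower without LRC replicate 1, with a median of 0.0068. Without non-LRC replicate 1, 12 were lower, with a median of -0.15. Polrmt, the mitochondrial RNA polymerase, had 2.60, 4.76 and 4.63 in LRC and 7.19, 5.004 and 5.04 in non-LRC, so that the means differed by -1.75 (SE 0.82), and Tefm, its elongation factor, differed by 1.02 (SE 0.42). On LRC replicate 1 the median deviation of these lists was -0.20 and -0.32, the lowest of the 6 arrays for both, and on non-LRC replicate 1 it was 0.28 and 0.21, the highest for both. Without non-LRC replicate 1 the difference was -0.84 for Dhx30 and -1.03 for Polrmt, and without LRC replicate 1 it was -1.05 for Polrmt.

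The respiratory chain, whose mitochondrially encoded subunits the mitochondrial ribosome makes, and the cytosolic ribosome served for comparison. Of 68 measured of 72 nuclear-encoded respiratory chain genes, 42 were lower in LRC, with a median of -0.067. Ndufc1, a subunit of complex I, differed by -0.90 (SE 0.43) and Cox7a2, a subunit of cytochrome c oxidase, by -0.72 (SE 0.32). Of 49 cytosolic ribosomal protein genes 34 were lower, with a median of -0.034. Rps27 differed by 0.49 (SE 0.28) and Rpl7l1, a relative of Rpl7 listed with them, by -1.11 (SE 0.68). The median deviation of the respiratory chain list was -0.25, 0.14 and -0.036 in LRC and 0.011, -0.027 and 0.097 in non-LRC. That of the cytosolic ribosomal proteins was -0.13, 0.079 and -0.0096 in LRC and -0.042, 0.064 and 0.025 in non-LRC. Without LRC replicate 1, 34 of 68 respiratory chain genes and 21 of 49 cytosolic ribosomal protein genes were lower. Both lists were lowest on LRC replicate 1 and highest on LRC replicate 2, as were the members, and the medians of the members lay farther from 0 on both arrays than those of these lists. Median standard errors were 0.37 for members, 0.27 for respiratory chain and 0.18 for cytosolic genes, so these sizes are not directly comparable. Mitochondrial transcription and messenger handling genes lay farther from 0 than the members on LRC replicate 1 (-0.32 against -0.30). Translation factors did on LRC replicate 2 (0.26 against 0.21).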

How the data were processed

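RNA of sorted HSCs was isolated with a PicoPure kit, amplified in 2 rounds and biotin-labelled, per the labels' protocols, and hybridized to 1 Affymetrix array per sample. The deposited values are log2 signals, 1 per probe set and array. The submitters' processing notes name RMA without a version. That the base is 2 follows from how far the numbers reach and is not stated there. RMA normally forces arrays to nearly equal distributions, so global shifts are not visible. Arrays give no read depth, and their number limits the precision. Columns of other samples numbered 0.

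Apart from 64 control probe sets, all 45037 entered 1 model in limma 3.58.1 (R 4.3.3), fitted with lmFit and eBayes without covariates for LRC minus non-LRC, with Benjamini-Hochberg adjustment and a threshold of 0.05. Standard errors are limma's moderated ones. The fit was first tested on simulated data. Symbols came from the platform annotation: 34945 probe sets had 1 symbol, 932 several and 9160 none. Counts and medians over lists are descriptions without tests. Promoters are RefSeq's (GRCm38.p6).

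The members and lists were chosen with earlier results of these data known. The genes named were the 8 of smallest p in each direction (non-overlapping first), the S18 genes, Mrps30, Mrps36, Mrpl12, Mrpl11 and Mrps12, the 4 with the smallest standard error, the 5 with the widest range over probe sets, the 3 with the widest range in each group, 2 genes per other list and all subunits outside the name rule. Genes in the promoter account and Mrpl10 were named after their values were seen. Alternatives were other normalizations, a filter on dim probe sets, other moderation, array weights, a replicate block, a hybridization control covariate, each array left out, the mean of all probe sets, and subunits by structure. Leaving out LRC replicates 1 and 3 was added after seeing the data.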

Additional observations from a re-analysis of the deposited data

How the results depend on the processing

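The number of members past the adjusted threshold was 0 under every alternative run, including a threshold of 0.1. Of 127 values of the summary results under alternatives, 111 stayed within 1.5 times for a count or within the SD between arrays for a median, which for medians near 0 includes changes of sign. Some of the 111 could not move. These include the medians with the replicate block and those with dim probe sets left out, a filter that all 76 members pass. The large minus small value after median centring is another. The number of members with an unadjusted p under 0.05 in limma moved further. For members lower in LRC, 4 in the reported fit, it was 2 with dim probe sets left out, 2 with trend and robust moderation, 1 with the replicate block, 1 with the hybridization control covariate, 2 with the mean of all probe sets and 1 with LRC replicates 1 and 3 left out. Leaving out 1 array gave 1 to 6, with 1 without LRC replicate 1, LRC replicate 3 or non-LRC replicate 1 and 6 without non-LRC replicate 2. For members higher in LRC, 1 in the reported fit, it was 0 with the covariate, 2 with the mean of all probe sets and 0 with LRC replicates 1 and 3 left out. Leaving out 1 array gave 1 to 4, with 4 without non-LRC replicate 3 and 2 without LRC replicate 3. The median difference of the members was 0.14 with LRC replicates 1 and 3 left out, a setting that leaves 1 LRC array, which is assumed to vary like the non-LRC arrays. It also turned positive without LRC replicate 1 (0.046) and with the covariate (0.10), and was -0.064 after quantile normalization and -0.033 with array weights. The cause was not tested.

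Replicate numbers are not stated to pair the arrays. Deviations of equally numbered arrays correlated at 0.080, 0.14 and 0.081, and each LRC array correlated best with its own number, a hint from the data and not from the design. The replicate block could not change the median difference of -0.096, because each number occurs once in each group.

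With 3 arrays per group, the median 95% interval of a member reached 0.90 to either side, so smaller changes are not resolved. Probe sets of 1 gene disagree in sign in 24 genes, and the mean of all probe sets moved Mrps5 to -0.15, Mrpl21 to -0.037 and Mrpl48 to 0.68.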
